A study of Sus scrofa with 36 samples.

Results

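Bactericidal/permeability-increasing protein (BPI) and 9 further proteins of neutrophils and related myeloid cells were followed in the thyroid gland of 36 pigs. The genes were BPI, S100A8, S100A9, S100A12, LTF, LYZ, MPO, PGLYRP1, ELANE and CAMP. A probe was taken when the array file named it with one of these symbols or held the symbol in round brackets in its description. A total of 19 of the 60305 probes met this rule, and they stood for 9 of the 10 genes, among 13799 gene names on the array. CAMP had no such probe and was not analysed here. At least 1 probe of each of the 9 genes, and 17 of the 19 probes, passed the filter on dim signals. Where a gene had several probes, it is represented by the tested probe with the highest mean signal. BPI was chosen by its heat values, that is its change over the breeds and its different change in each breed, and those values are a description with no test. The other members were tested.

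The pigs were castrated growing males of 3 breeds: Creole (CR), Large White (LW) and their cross, labelled F1. Each breed had 6 pigs labelled 24 °C and 6 labelled 30 °C, and all pigs were raised in the same facility. Per the protocol, exposure lasted 5 days and was to 32 °C, not 30 °C as in the labels. Pigs of the 24 °C groups were killed before it began and those of the 30 °C groups after it, which by the study's methods was a day shorter for some, so heat cannot be told apart from the day of slaughter and the age that goes with it. Total RNA of each gland was labelled with Cy3 and hybridized to its own 1-colour Agilent porcine array. Values are log2 of the quantile-normalized median intensity of a spot, a change of 1 is a 2-fold change, and the level of one probe says nothing about the level of another. Pens, litters and parents are not in the labels, so littermates were treated as independent pigs and a breed cannot be told apart from the few families that stand for it.

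Neutrophils carry ready-made antimicrobial proteins in granules that form in sequence in the bone marrow. Primary granules hold MPO, which makes hypochlorous acid, the serine protease ELANE and BPI, which binds the lipopolysaccharide of Gram-negative bacteria. Secondary granules hold the iron-binding protein lactoferrin (LTF) and the cathelicidins, and PGLYRP1, which binds bacterial peptidoglycan, is also a granule protein. S100A8 and S100A9 form calprotectin, which is abundant in the cytosol of neutrophils and monocytes, and S100A12 is a related calcium-binding protein of the same cells. Lysozyme (LYZ) cleaves the bacterial cell wall and is made by neutrophils and macrophages. LTF, LYZ and PGLYRP1 are also made by some epithelial cells. Messenger RNA of the primary granule proteins is made mainly in marrow precursors and is scarce in mature neutrophils. In RNA from a whole gland, fewer cells of a type and less RNA per cell cannot be told apart.

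The 2 BPI probes, the probes of the 3 S100 genes and that of PGLYRP1 are printed here in lower case, 5′ to 3′, as the array files list them, because they show what the results on BPI, on calprotectin and on one of the breed calls were read from. Probes of the other members are not shown. No letters are in capitals, since the files mark no feature within a probe. Each is 60 bases long.
BPI, probe A_72_P213667: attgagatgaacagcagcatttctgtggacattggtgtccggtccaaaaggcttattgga
BPI, probe A_72_P685060: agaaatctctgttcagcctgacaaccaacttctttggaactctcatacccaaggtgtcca
S100A8, probe A_72_P428729: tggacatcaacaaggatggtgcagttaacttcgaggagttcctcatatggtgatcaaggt
S100A9, probe A_72_P137861: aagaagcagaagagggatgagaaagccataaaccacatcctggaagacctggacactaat
S100A12, probe A_72_P441085: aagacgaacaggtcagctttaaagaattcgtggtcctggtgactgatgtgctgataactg
PGLYRP1, probe A_72_P232762: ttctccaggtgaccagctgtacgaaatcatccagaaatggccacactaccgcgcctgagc

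The files place the BPI probes at positions 1247 and 1035 of the same transcript, so the probes do not overlap. Their values over the 36 pigs correlated at r = 0.99. The 4 LYZ probes also moved together, with r between 0.97 and 0.99 against the representative. PGLYRP1 was read by probe A_72_P232762 and by a probe of identical sequence (r = 0.99), and by a dimmer probe, A_72_P245717 (r = 0.71). The files give no genome position for the probes, and none is reported.

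The tissue label was checked first. Of the 15 thyroid follicular markers on the array 13 were tested, and thyroglobulin (TG), the precursor of thyroid hormone, lay between 18.15 and 19.09 in all 36 pigs with a heat change of -0.01 ± 0.09 (SE). The follicular markers DIO1 and SLC26A4 were not above background. Between 72.8% and 80.3% of the spots of an array were well above background and 0 were saturated. Genes of blood cells were also present. Haemoglobin beta (HBB), the marker of red blood cells, changed by -1.0 ± 0.19 (SE, limma adjusted p = 0.00142) from 24 to 30 °C, and the change was -1.07, -0.94 and -1.01 in CR, F1 and LW, respectively. 

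BPI had the widest range of the 9 members over the pigs, from 4.96 to 10.47. The lowest of these, a CR pig at 30 °C, was the 1 of 36 not well above background and is therefore only an upper bound. In CR at 24 °C it lay between 7.91 and 10.47 (median 9.37), and in CR at 30 °C between 4.96 and 8.26 (median 6.41). In F1 it lay between 7.10 and 9.72 (median 8.85) at 24 °C and between 5.74 and 7.87 (median 6.41) at 30 °C. The groups overlapped in both breeds, but 5 of the 6 hot pigs of each lay below the lowest of its 24 °C pigs. LW differed in pattern, with 5.70 to 8.36 (median 6.86) at 24 °C and 5.65 to 8.02 (median 6.82) at 30 °C, which is nearly the same range. The high values of BPI were thus those of the CR and F1 pigs at 24 °C, and the other 4 groups had means between 6.47 and 7.0.

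**Figure D1:**
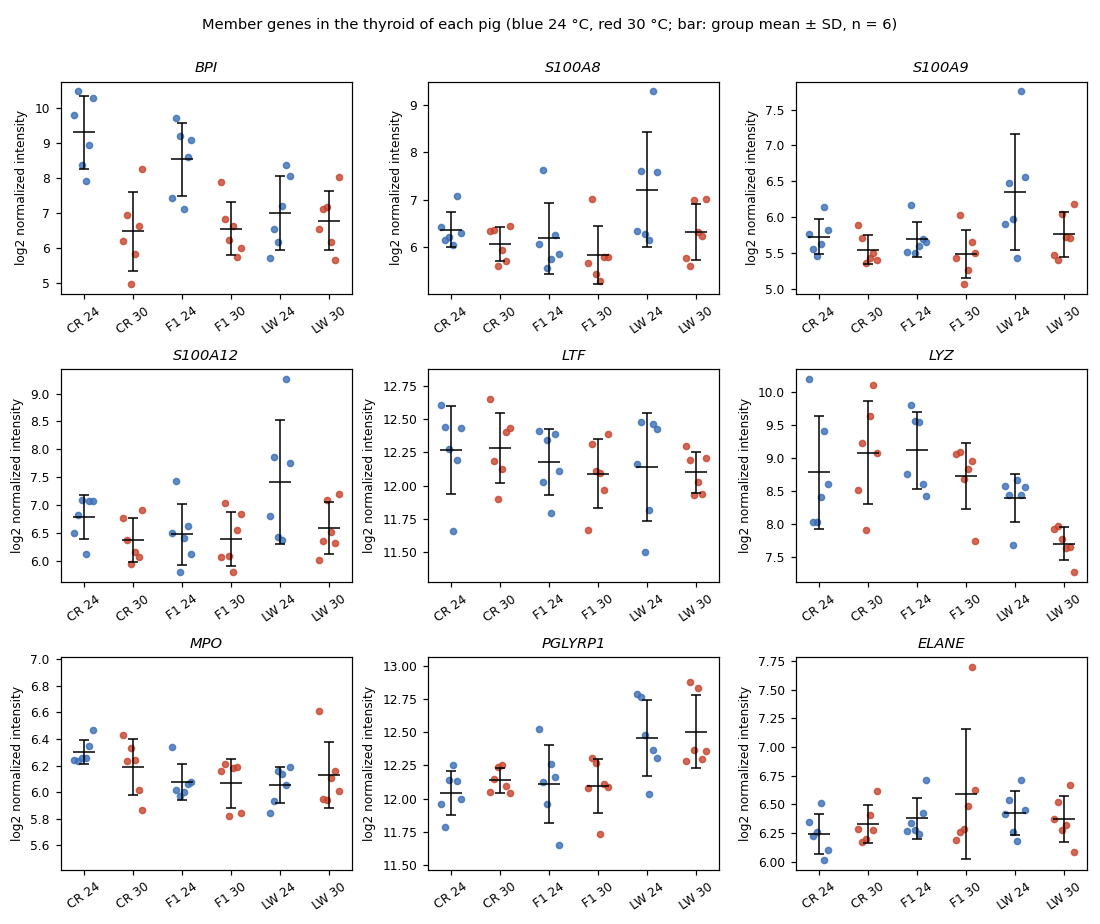
Log2 normalized intensity (vertical axis) of the representative probe of each of the 9 members in every pig, by breed and labelled temperature (horizontal axis). Blue points are pigs at 24 °C, red points pigs at 30 °C, and bars are the group mean ± SD of 6 pigs. BPI reaches its highest values in the CR and F1 pigs at 24 °C, S100A8, S100A9 and S100A12 reach their highest values in the same LW pig at 24 °C, and LYZ is lowest in LW at 30 °C.

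As group means BPI stood at 9.29 ± 1.05 (SD, n = 6) in CR, 8.52 ± 1.04 in F1 and 7.0 ± 1.06 in LW at 24 °C, and at 6.47 ± 1.12, 6.54 ± 0.76 and 6.77 ± 0.84 at 30 °C. The difference between 30 and 24 °C was -1.68 ± 0.35 (SE of the model) over the breeds, 3.20-fold lower. Within the breeds it was -2.83 ± 0.54 in CR (7.10-fold lower), -1.98 ± 0.54 in F1 (3.94-fold lower) and -0.22 ± 0.54 in LW. The second probe gave -1.36 over the breeds and -2.34, -1.68 and -0.05 within CR, F1 and LW. Within the 4 slides that held all 6 groups the difference between the hot and the 24 °C pigs ran from -2.25 to -1.26. These are plain means with no breed term, and the breeds were in unequal numbers at the 2 temperatures of each slide, so breed enters them in part. The fifth slide held only CR and F1 pigs at 30 °C and LW pigs at 24 °C, so that its difference of -1.07 mixes breed and heat fully. The small LW difference turned to 0.28 when the slide was a fixed term and lay between -0.48 and 0.049 when each pig in turn was left out. BPI was on average 0.99 ± 0.43 lower in LW than in CR over both temperatures, a difference that failed the threshold (limma adjusted p = 0.131), with -2.30 at 24 °C and 0.31 at 30 °C.

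Heat was tested for the other 8 members. None was called at an adjusted p under 0.05, against 1.18% of all 46222 tested probes, and 3 of the 8 had an unadjusted p under 0.05, as had 9.74% of all tested probes. Those 3 were the S100 genes, the members that fill the cytosol of neutrophils. S100A8 changed by -0.52 ± 0.22 (SE, limma adjusted p = 0.417), S100A9 by -0.32 ± 0.13 (adjusted p = 0.359) and S100A12 by -0.44 ± 0.20 (adjusted p = 0.443). LYZ had -0.26 ± 0.20. LTF (-0.04 ± 0.09), MPO (-0.02 ± 0.06), PGLYRP1 (0.04 ± 0.07) and ELANE (0.08 ± 0.09) had small differences, and their 95% intervals lay within -0.22 and 0.27. A total of 6 of the 8 had a negative sign, with a median of -0.15 beside 0.01 over all tested probes.

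**Figure D2:**
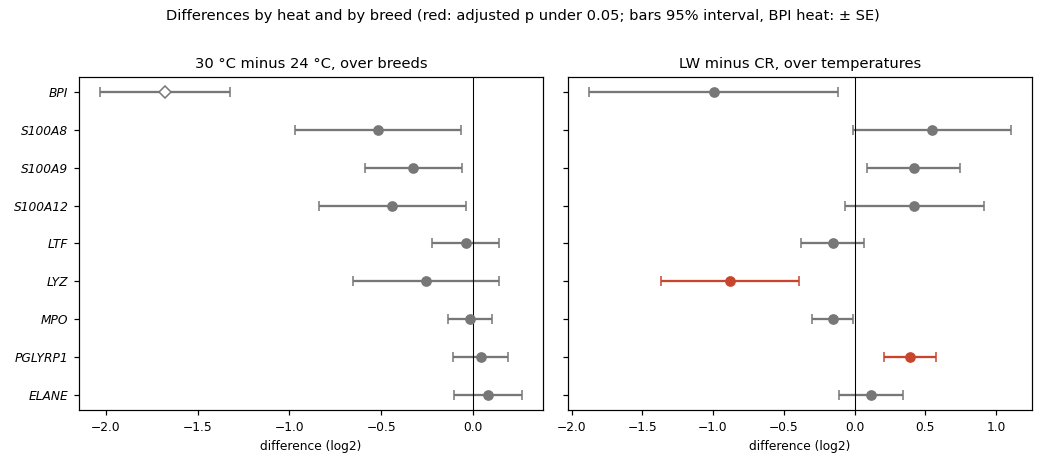
Difference on the log2 scale (horizontal axis) of each member (vertical axis) for 30 minus 24 °C over the breeds (left) and for LW minus CR over both temperatures (right). Points are model estimates from 36 pigs, bars are 95% intervals except for the heat difference of BPI, which is an open diamond with ± SE, and red marks an adjusted p under 0.05. BPI has the heat difference farthest from 0, at -1.68, and LYZ and PGLYRP1 are the members called between the breeds.

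Within single breeds none of the 8 members passed the threshold either. The share of probes called was 0.387% in CR, 0.383% in F1 and 0% in LW, and the number of the 8 at an unadjusted p under 0.05 was 0, 0 and 4, beside 5.75%, 10.6% and 4.01% of all probes. In LW, where BPI hardly differed, S100A8 differed by -0.89 ± 0.39 (SE), S100A9 by -0.59 ± 0.23, S100A12 by -0.83 ± 0.34 and LYZ by -0.68 ± 0.33, all at a limma adjusted p of 1.00. Without LW pig 5 at 24 °C the S100 differences in LW were -0.47, -0.31 and -0.46, and that of LYZ was -0.67. The test of whether the heat change itself differed between the breeds called 0 members and 0% of all probes, with 0 of the 8 and 4.67% of all probes at an unadjusted p under 0.05, so no difference of these genes between breeds in their heat change was shown. With 6 pigs against 6 the intervals were wide.

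**Figure D3:**
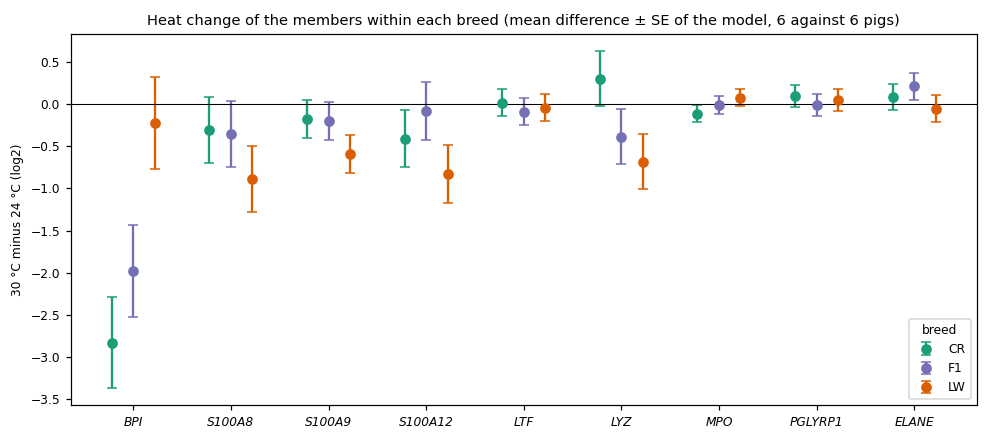
Heat difference (30 minus 24 °C, log2, vertical axis) of each member (horizontal axis) within CR, F1 and LW, as the difference of 2 group means of 6 pigs with the SE of the model as bars. BPI lies at -2.83 in CR, -1.98 in F1 and -0.22 in LW, and the 3 S100 genes lie lowest in LW.

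The 3 S100 genes were read close to background in many pigs. The S100A9 spot passed the scanner's background test on 24 of 36 arrays, S100A8 on 34 and S100A12 on all 36. By group, the S100A9 spot passed on 5 of 6 arrays in LW at each temperature and on 3 or 4 in the CR and F1 groups. It thus entered the tests only through the LW groups. A second S100A9 probe, O5444, passed on 5 of 36 arrays and was not tested. Its mean at 24 and 30 °C was 5.24 and 5.59 in LW, 5.32 and 5.21 in CR, and 5.30 and 5.29 in F1. S100A8 lay between 6.14 and 9.29 (median 6.96) in LW at 24 °C and between 5.60 and 7.02 (median 6.27) in LW at 30 °C. In CR it lay between 6.05 and 7.08 at 24 °C and between 5.60 and 6.45 at 30 °C, and in F1 between 5.56 and 7.63 and between 5.28 and 7.0. The temperatures overlapped in every breed. A single LW pig at 24 °C, replicate 5, had the highest value of all 36 for each of the genes, 9.29 for S100A8, 7.76 for S100A9 and 9.26 for S100A12. Without it the heat differences were -0.37 for S100A8, -0.23 for S100A9 and -0.31 for S100A12 (limma adjusted p between 0.424 and 0.573).

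Between LW and CR the differences of S100A8 and S100A12 failed the threshold. The LW minus CR difference was 0.55 ± 0.27 (SE, limma adjusted p = 0.200) for S100A8 and 0.42 ± 0.24 (adjusted p = 0.273) for S100A12. For S100A9 it was 0.42 ± 0.16 (SE). The S100A9 probe entered the tests only through the LW groups, so its breed difference is a description. That difference was 0.49 without the LW pig at 24 °C numbered 4 and 0.27 without number 5. Without number 5 S100A8 stood at 0.33 (adjusted p = 0.376) and S100A12 at 0.23 (adjusted p = 0.505).

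LYZ and PGLYRP1 were the members that differed between the breeds. Of the 9 members, BPI included, 2 were called for LW minus CR, 1 in each direction, where 12.9% of all tested probes were called, 7.17% higher and 5.73% lower. LYZ was lower in LW by 0.88 ± 0.24 (SE, limma adjusted p = 0.0118), 1.84-fold, and all 4 of its probes were called in that direction, with adjusted p between 0.0118 and 0.0266. PGLYRP1 was higher in LW by 0.39 ± 0.09 (limma adjusted p = 0.00311), 1.31-fold. The identical second probe gave the same call, and the dim probe A_72_P245717 gave 0.20 with an adjusted p of 0.0971. Within each of the 4 slides that held all 6 groups LYZ was lower in the LW pigs, by differences from -1.48 to -0.49, and PGLYRP1 was higher, by 0.08 to 0.61.

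Pig by pig, LYZ lay between 7.28 and 7.97 (median 7.72) in LW at 30 °C and between 7.68 and 8.66 (median 8.50) in LW at 24 °C. In CR it ranged from 8.04 to 10.19 (median 8.50) at 24 °C and from 7.91 to 10.11 (median 9.15) at 30 °C. In F1 it ranged from 8.43 to 9.79 (median 9.15) and from 7.75 to 9.09 (median 8.89). LW pigs at 30 °C were thus the low group, with a spread (SD 0.25) well under that of CR (SD 0.78), and 4 of the 6 lay below every CR pig at 30 °C. At 30 °C alone, LYZ was the 1 of 8 members called between LW and CR (-1.37 ± 0.33 SE, limma adjusted p = 0.0140), where 3.67% of all probes were called. At 24 °C alone the difference was -0.39 ± 0.33 (adjusted p = 0.614), 0 of the 8 members were called, and 3.46% of all probes were called, while 4 of the 8 and 16.9% of all probes had an unadjusted p under 0.05. S100A9, which was tested only through the LW groups, was among these 4.

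PGLYRP1 lay between 12.03 and 12.79 (median 12.42) in LW at 24 °C and between 12.29 and 12.88 (median 12.36) in LW at 30 °C. In CR it lay between 11.78 and 12.25 at 24 °C and between 12.04 and 12.25 at 30 °C, and in F1 between 11.65 and 12.52 and between 11.73 and 12.30. At 30 °C all 6 LW pigs lay above all 6 CR pigs, a separation in this direction that 1.02% of all tested probes showed. At 24 °C 5 of the 6 LW pigs did.

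The cross was set against each parent breed. Against CR, 0 of the 9 members were called, and 3.38% of all probes were called, while 1 of the 9 (MPO) and 17.2% of all probes had an unadjusted p under 0.05. Against LW, LYZ was higher in F1 by 0.87 ± 0.24 (SE, limma adjusted p = 0.0467) and PGLYRP1 lower by 0.38 ± 0.09 (adjusted p = 0.0186), where 1.99% of all probes were called, 1.07% higher and 0.924% lower. The LYZ call was close to the threshold, held for 2 of its 4 probes and was lost in 19 of the 36 fits that dropped a single pig, and in each of these fits 1 member was still called, lower in F1. For both genes the F1 pigs stood near CR, with F1 minus CR differences of -0.01 ± 0.24 for LYZ and 0.01 ± 0.09 for PGLYRP1.

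The remaining members are MPO and ELANE, of primary granules, and LTF. MPO had a probe named for the gene that rose above background on 1 of 36 arrays and was not tested. Its other probe, A_72_P319968, belongs to an assembled transcript described as myeloperoxidase, lay between 5.82 and 6.61 in all pigs and had an LW minus CR difference of -0.15 ± 0.07 (SE, limma adjusted p = 0.161). At 24 °C the 6 LW pigs (5.84 to 6.19) all lay below the 6 CR pigs (6.23 to 6.47), a separation in this direction that 1.23% of all tested probes showed, with a difference of -0.25 ± 0.10 (adjusted p = 0.185). The difference over both temperatures passed the threshold at -0.20 (adjusted p = 0.0278) without LW pig 1 at 30 °C. ELANE lay between 6.01 and 7.70, with 1 F1 pig at 30 °C at the top, and no difference passed the threshold. A further probe, which the files name only as a neutrophil elastase-like locus and which RefSeq (assembly Sscrofa11.1) lists as ELANE, lies outside the rule. It had a heat difference of -0.03 ± 0.06 and an LW minus CR difference of -0.15 ± 0.07 (adjusted p = 0.197). LTF had a narrow range, between 11.50 and 12.65 in all 36 pigs, and its 3 probes had heat differences between -0.04 and -0.01.

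The members were also compared from pig to pig inside the groups, by subtracting each group's mean, which the choice of BPI did not use. S100A8 and S100A9, the partners of calprotectin, varied together closely (Pearson r = 0.92, Spearman rho = 0.90, n = 36, both with a permutation p of 1e-05, the smallest that 100000 resamples can give, adjusted 9e-05 over 9 pairs). The r was 0.89 without the 2 pigs farthest from the median of S100A8 and between 0.93 and 0.97 within the 4 slides of 8 pigs. BPI followed the S100 genes only loosely. It had r = 0.45 with S100A8 (rho = 0.39, permutation p = 0.00991 and 0.0325, adjusted 0.0297 and 0.0849), 0.42 with S100A12 (rho = 0.36, permutation p = 0.0192 and 0.0485, adjusted 0.0431 and 0.0873) and 0.37 with S100A9 (rho = 0.37, permutation p = 0.0379 and 0.0377, adjusted 0.0682 and 0.0849). Within slides the r of BPI with S100A8 lay between -0.003 and 0.61, so the relation was not seen on every slide.

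BPI and PGLYRP1 ran in opposite directions (r = -0.47, rho = -0.55, n = 36, permutation p = 0.00645 and 0.0013, adjusted 0.029 and 0.00585). The sign was negative within each of the 4 slides of 8 pigs, with r from -0.67 to -0.40, and r was -0.47 without the 2 pigs with the most extreme BPI. The pairs of BPI with LTF (r = 0.37, rho = 0.32, permutation p = 0.0475 and 0.0802, adjusted 0.0712 and 0.12), LYZ (r = 0.23, rho = 0.21, permutation p = 0.24 and 0.26, adjusted 0.309 and 0.335), MPO (r = -0.16, rho = -0.13, permutation p = 0.368 and 0.481, adjusted 0.414 and 0.541) and ELANE (r = -0.12, rho = -0.04, permutation p = 0.444 and 0.799, adjusted 0.444 and 0.799) failed the threshold after adjustment.

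The genes whose levels ran closest to BPI over the 36 pigs were looked up as well, and this likeness includes the group differences by which BPI was chosen. Among 11845 named genes with a tested probe the highest Pearson r, as a description, were those of CDCA3 (0.85), CENPF (0.85), CCNF (0.85), CCNB2 (0.84) and CDC20 (0.84). CDCA3 and CDC20 act in the destruction of mitotic regulators, CCNF and CCNB2 are cyclins, and CENPF is a kinetochore protein. All 5 were lower at 30 °C, CDCA3 by 1.33 ± 0.17 (SE) and CENPF by 1.31 ± 0.17. Genes picked by this likeness tend to share the heat difference of BPI, so these values are given with no test. For CENPF the heat difference was -1.73 in CR, -1.41 in F1 and -0.79 in LW, and the 5 genes lay between -0.79 and -0.42 in LW, where BPI was at -0.22. After the group means were subtracted, the 5 highest were a probe named SEP5 (septin 5, 0.72), CENPF (0.70), PCYOX1L (0.70), CCNB2 (0.69) and DEPDC1B (0.68). These r were picked as the highest of 11845 and share the arrays and their scaling.

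**Figure D4:**
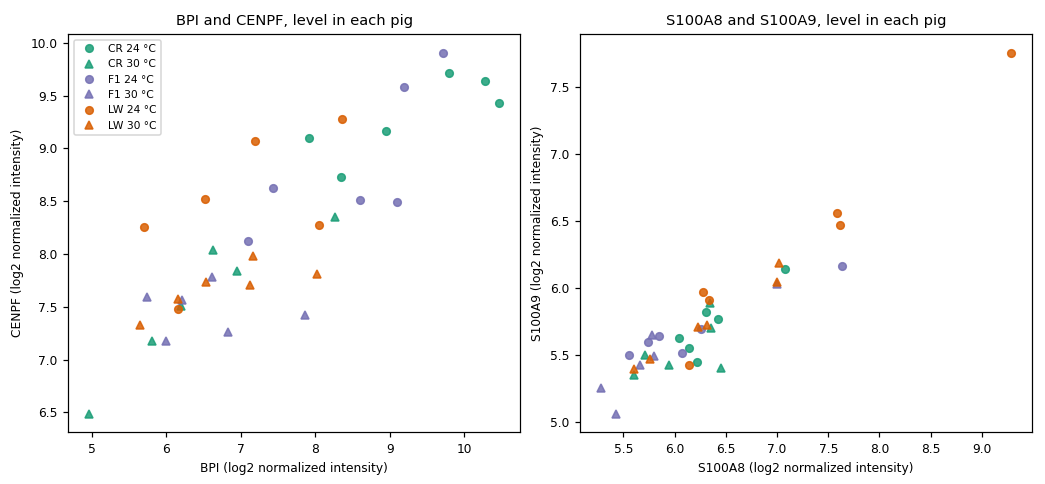
Left, BPI (horizontal axis) against CENPF (vertical axis), and right, S100A8 against S100A9, as log2 normalized intensity of each of 36 pigs, with colours for breeds, circles for 24 °C and triangles for 30 °C. The left points run along a broad band (r = 0.85) with most 30 °C pigs at its lower end, and the right points along a narrow one with 1 LW pig at 24 °C far above the rest.

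Other genes of neutrophils were described by lists, 1 probe a gene. Calls in this and the following lists stand beside 1.18% of all tested probes called for heat. For LW minus CR 12.9% of all tested probes were called, 7.17% higher and 5.73% lower. No list was tested as a set, so a few breed calls in a list are no result about that list. Of 21 tested genes of other granule and neutrophil effector proteins, 1 was called for heat, the arginase gene ARG1 (-0.71 ± 0.13 SE, limma adjusted p = 0.00128), and LCN2, a secondary granule protein that binds bacterial siderophores, was lower in LW than in CR (-0.49 ± 0.12, adjusted p = 0.00344). The median heat difference of the list was -0.02. Of 16 tested genes of the neutrophil surface and of neutrophil recruitment, the chemokine CXCL2 was called for heat (-0.90 ± 0.14, adjusted p = 6.75e-05), and CXCL2 (0.78), its receptor CXCR2 (0.45), CXCL12 (1.06) and CXCR4 (0.45) were called higher in LW than in CR, with adjusted p between 0.00146 and 0.0311. The receptor gene CSF3R had no named probe and was not analysed here. AQP9, FCAR, PTAFR and TREM1, which mark neutrophils, were not above background. Of the porcine cathelicidins only the protegrin NPG4 and PMAP-36 were tested and 0 was called, with heat differences of -0.43 ± 0.32 and -0.21 ± 0.09 and unadjusted p of 0.196 and 0.0235, and PR39 and PMAP-23 were not above background.

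None of the 13 tested genes of the BPI fold and of lipopolysaccharide recognition was called for heat, and 1, TRAF6, was lower in LW than in CR (-0.53 ± 0.11, limma adjusted p = 0.00119). Of 13 other S100 genes and receptors 0 was called for heat, S100A1 (-0.53) and S100A13 (-1.06) were lower and the receptor AGER (0.67) higher in LW. Among 12 other secreted antimicrobial genes 0 was called for heat, the defensin DEFB1 was higher in LW by 2.84 ± 0.25 (adjusted p = 2.25e-09) and the protease inhibitor SLPI lower by 1.34 ± 0.21 (adjusted p = 4.33e-05). Among 10 transcription factors of granulocytes 0 was called for heat, and CEBPA (-0.46) and MYB (-0.30) were lower in LW. Beside these breed calls, 7.17% of all tested probes were called higher and 5.73% lower in LW than in CR.

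Of the 14 tested markers of monocytes and macrophages 0 was called for heat or for LW minus CR, and CD163 had a heat difference of -0.34 ± 0.15 (limma adjusted p = 0.436). The mean log2 level of these 14 ranged over the pigs from 9.40 to 9.88 in CR, 9.29 to 9.74 in F1 and 9.52 to 9.84 in LW at 24 °C, and from 9.24 to 9.98, 9.18 to 9.75 and 9.15 to 9.71 at 30 °C. The groups overlapped. Of the 12 red cell markers HBB was called for heat and HEMGN (-0.27) for LW minus CR, and the mean level of the 12 ranged from 8.70 to 8.89 in CR, 8.67 to 8.88 in F1 and 8.69 to 9.05 in LW at 24 °C, and from 8.59 to 8.78, 8.49 to 8.71 and 8.57 to 8.84 at 30 °C. The part of these cells in the results was not tested. The 8 platelet markers had 0 calls for heat or for LW minus CR and PPBP was not above background. Of the 13 lymphocyte and plasma cell markers 0 was called for heat and IGJ (-0.43) was lower in LW, of 3 eosinophil, basophil and mast cell markers 0 was called for heat, HDC (-0.87) and MS4A2 (-0.35) were lower and KIT (1.82) higher in LW. The 5 thymus markers had 0 calls, of the 7 epithelial markers SPINK5 (1.22) and of the 13 follicular markers NKX2-1 (0.17) were higher in LW, and neither list had a call for heat. Over all tested probes 1.18% were called for heat and 12.9% for LW minus CR.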

How the data were processed

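Thyroid RNA of 36 pigs was measured on 1-colour Agilent arrays, 1 pig per array. Per the file headers the scanner files hold raw spot intensity values from Agilent Feature Extraction 10.10.1.1, and the authors deposited a table of quantile-normalized log2 values, used here as an alternative (the median gap to the values remade here was 0.00556). Here median intensities were quantile-normalized without background subtraction, non-uniform and control spots left out, log2 taken and spots of a probe averaged. A probe was tested when flagged above background in 5 or more of a group's 6 arrays, which left 46222. Limma 3.58.1 (R 4.3.3) was fitted with terms for breed and temperature, or with 6 group means for changes within breeds and their interaction, with Benjamini-Hochberg adjustment over all tested probes, 2-sided, and a call is an adjusted p under 0.05. The number of arrays limits the precision. Arrays lay on 5 slides, 4 of which held all 6 groups, and the p-values treat pigs as independent. Slide was tried as a random and as a fixed block.

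Members and gene lists were chosen with earlier results of these data known. All members are named. From each list the called genes with the smallest adjusted p, up to 4, and HBB, TG, CSF3R and CD163 are named, and the 5 genes with the highest r with BPI. S100A8-like genes were chosen after seeing values. Gene names are those of the array files, updated through RefSeq (Sscrofa11.1) where a symbol, accession or gene number matched, and 24071 tested probes had a name. The build behind the probes is not given in the sources used here. Some list genes are not reported here.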

Additional observations from a re-analysis of the deposited data

Results flagged for a closer look

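In 9 of the 54 sets of 6 pigs (9 members in 6 groups) the highest or lowest pig lay farther from its neighbour than Dixon's 95% critical value for 6 samples allows, taken as a share of the group's range. Chance flags about 1 in 20 groups. S100A8 was high at 7.08 in 1 CR pig at 24 °C (next 6.42), at 7.63 in 1 F1 pig at 24 °C (next 6.26) and at 7.0 in 1 F1 pig at 30 °C (next 5.80). The same F1 pig at 24 °C was high for S100A9, at 6.17 (next 5.70). LYZ was low at 7.75 in 1 F1 pig at 30 °C (next 8.68) and at 7.68 in 1 LW pig at 24 °C (next 8.44). MPO was high at 6.34 in 1 F1 pig at 24 °C (next 6.07) and at 6.61 in 1 LW pig at 30 °C (next 6.16). ELANE was high at 7.70 in 1 F1 pig at 30 °C (next 6.63), and without that pig its heat difference was 0.01.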

How the results depend on the processing

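The heat difference of BPI kept its sign in all alternatives, between -2.16 and -1.36 under other scalings, background corrections, filters, slide terms and probes, and between -1.80 and -1.55 when each pig in turn was left out. Within CR and F1 it stayed between -3.74 and -1.65 in the same alternatives. Within LW it was 0.28 with slide as a fixed block, and between -0.48 and 0.049 without single pigs. The count of other members called for heat was 0 in all fits. For LW minus CR the count was 2, LYZ and PGLYRP1, in all alternatives to the processing and 1 with PGLYRP1 read by its dim probe, and between 2 and 3 without single pigs. For F1 minus LW it fell from 2 to 1 with the processed signal, normexp, no filter, slide as a fixed block, 2 other LYZ probes (each losing LYZ) and the dim PGLYRP1 probe (losing PGLYRP1), and lay between 1 and 2 without single pigs, an alternative added after seeing the data. The cause was not tested. The heat difference of MPO lay between -0.049 and 0.0076 without single pigs. With the processed signal, which is background-subtracted, differences of dim members that missed the threshold grew without passing it: for heat S100A8 to -0.90, S100A9 to -0.73 and ELANE to 0.14, within LW S100A8 to -1.37 and S100A9 to -1.05, and for LW minus CR S100A9 to 0.78 and MPO to -0.32. With the filter on 6 of 6 arrays S100A9 was not tested. Replicate numbers follow the order of the records. No paired analysis was possible because they mark no shared animal. Dim signals limit S100A9 most.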

Other observations

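The genes closest to S100A8 were looked up after the values of the S100 genes had been seen. After subtracting group means, the 5 named genes that are no members with the highest Pearson r over the 36 pigs were NPG4, a protegrin of porcine neutrophils (0.79), CA1, a carbonic anhydrase of red blood cells (0.72), NFE2, a transcription factor of red cell and platelet precursors (0.64), YPEL1 (0.60) and PMAP-36, a porcine cathelicidin (0.58). With BPI, NPG4 had r = 0.55 and PMAP-36 r = 0.29. NPG4 lay between 6.49 and 10.97 over the pigs. These r are descriptions, picked as the highest of 11845 genes.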
